A study of Homo sapiens with 4 samples.

Results

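The fibroblast growth factor (FGF) pathway was examined in H9, a widely used line of human embryonic stem cells. Its 48 genes were taken from the 60671 genes of the deposited table by their symbols. They comprised 22 FGF ligand genes, 7 receptor and co-receptor genes, 3 genes for FGF-binding proteins, 2 for docking proteins, 11 for feedback inhibitors and 3 for ETS transcription factors that FGF signalling is known to induce. Poly(A)-selected RNA had been sequenced from 4 libraries in 2 groups of 2. One group held control H9 cells. The second group, called KO+OE here, carried an edited CFIm25 gene together with overexpressed 3Flag-CFIm25. The study kept its H9 cells in mTeSR medium and used puromycin to select CRISPR/Cas9 cultures before clones were picked. The sample titles name no other treatment. CFIm25, the product of NUDT21, belongs to cleavage factor I, a complex that helps to select poly(A) sites. One label calls the edit a knockout and another a knockdown. The study describes a rescue in which CFIm25 was put back into a single mutant clone, m3, with a lentiviral vector named for an EF1 promoter, and mutant clones that still made shortened CFIm25 protein at a low level. Edited cells without re-expression were not analysed here. The labels say only control, and the study's text calls the controls of this RNA-seq mock controls, its name for clones given the empty CRISPR/Cas9 vector. A figure legend of the study, however, keeps control for H9 cells apart from mock control. A supplementary legend on this RNA-seq writes the comparison group as mock (m+OE), with m for mutant and OE for overexpression. Which of these the libraries hold is therefore not settled. The labels also do not say that the libraries of a group came from separate cultures, so p-values measure only the spread between these samples, which may be technical.

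FGFs are secreted proteins that bind, together with heparan sulfate on the cell surface, to receptor tyrosine kinases. The activated receptor phosphorylates the docking proteins FRS2 and FRS3, and these pass the signal to RAS and the kinase ERK. ERK signalling in turn switches on genes for ETS factors and for inhibitors of the same pathway, so their RNA is widely read as a gauge of FGF activity. Human embryonic stem cells need this pathway to renew themselves, and mTeSR medium supplies FGF2 from outside.

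Values were read as TPM, a measure of transcript share. In TPM, reads are divided by transcript length and each library is scaled to a common total. Levels of different genes can be set side by side only as far as those lengths fit the transcripts present. The lengths used are not given in the sources used here. The columns summed to between 986853 and 987078, and 12179 to 12332 genes were listed at 1 TPM or more. TPM carries no read counts, so the depth of the libraries is unknown and precision rests on the spread between replicates. The cell type was checked first. All 8 embryonic stem cell markers were at 1 TPM or more in every library, led by POU5F1 at 2164 to 2212 TPM and LIN28A at 517 to 528 TPM. Of 12 germ layer markers, 10 had a mean under 1 TPM and lay at 0.59 TPM or less in every library, whereas GATA6 ranged from 4.35 to 8.39 TPM and TBX6 from 1.61 to 2.64 TPM. Of 8 fibroblast markers, COL1A1 was at 53.9 to 55.6 TPM, COL1A2 at 13.0 to 14.5 TPM and TWIST1 at 0.80 to 1.60 TPM, but DCN, POSTN and COL3A1 did not exceed 0.08 TPM and LUM was listed at 0 throughout. PDGFRA, the remaining marker, lay in between at 0.36 to 0.69 TPM. NUDT21 (ENSG00000167005), the edited gene, was listed at 160.67 and 152.2 TPM in control versus 162.09 and 156.6 TPM in KO+OE. The log2 difference was 0.03, with a 95% confidence interval from -0.09 to 0.14 and an adjusted p = 0.980 from limma. The table does not tell the cells' own NUDT21 RNA from that of the lentiviral copy.

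H9 cells expressed part of the FGF pathway. Of the 48 genes, 26 reached a mean of 1 TPM over the 4 libraries and were tested, and 22 fell below it. Over the whole table, 12319 of 60671 genes reached that mean. The tested genes were 6 of 22 ligands, 5 of 7 receptors and co-receptors, 1 of 3 binding proteins, 1 of 2 docking proteins, 10 of 11 feedback inhibitors and all 3 ETS factors. In all 4 libraries, 24 genes were at 1 TPM or more. Conversely, 8 genes stayed under 0.1 TPM in every library, and 4 of them (FGF3, FGF6, FGF10 and KL) were listed at 0 throughout.

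**Figure D1:**
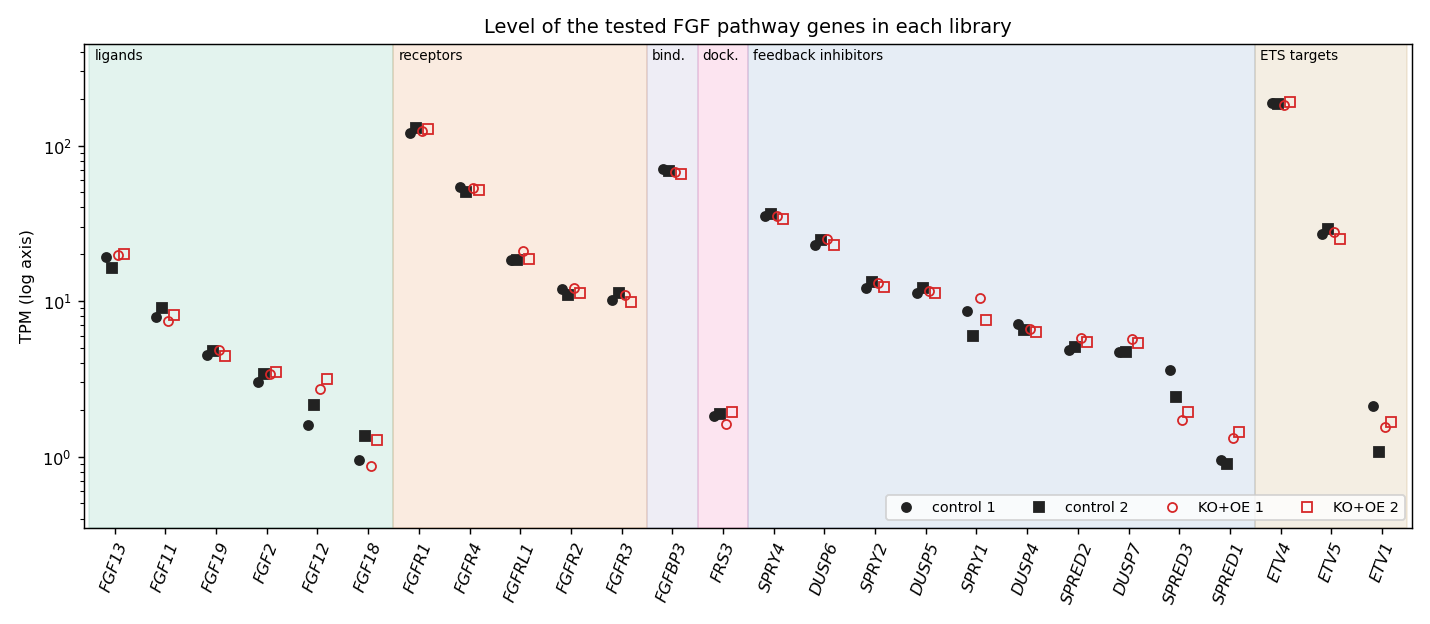
TPM (log axis) of the 26 tested genes in each of the 4 libraries, grouped by role (bind., FGF-binding protein; dock., docking protein). Filled black symbols are control and open red symbols KO+OE, with circles for replicate 1 and squares for replicate 2. ETV4 and FGFR1 stand highest, and the 4 symbols of most genes lie close together.

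The promoters of members above and below a mean of 1 TPM differed in CpG content, a property of the DNA sequence that the choice of genes did not use. Promoters rich in CpG dinucleotides (CpG islands) are typical of housekeeping and developmental genes. Promoter windows of 300 bases, from 250 before to 50 after the start site, were available from RefSeq (GRCh38.p14) for 36 of the 48 genes. Genes without a window included ETV4 and FGFR1, the highest members, and ETV5, DUSP4 and DUSP5. To show this contrast, the last 100 bases before the start site are printed for 6 genes whose stretch lies within no annotated gene, with every CG in capitals. FGF13 (chrX:139205024-139205123, minus strand), FGFR4 (chr5:177086815-177086914, plus strand) and SPRY2 (chr13:80341127-80341226, minus strand) were expressed.
FGF13: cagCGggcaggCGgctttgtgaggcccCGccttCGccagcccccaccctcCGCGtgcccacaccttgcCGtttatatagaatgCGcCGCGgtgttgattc
FGFR4: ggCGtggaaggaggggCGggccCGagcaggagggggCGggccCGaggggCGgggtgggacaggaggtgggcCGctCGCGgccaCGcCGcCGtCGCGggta
SPRY2: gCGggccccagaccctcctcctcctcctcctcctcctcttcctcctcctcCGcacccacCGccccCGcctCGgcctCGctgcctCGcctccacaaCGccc
FGF5 (chr4:80266488-80266587, plus strand), FGF6 (chr12:4445816-4445915, minus strand) and FGF21 (chr19:48755424-48755523, plus strand) had means under 1 TPM.
FGF5: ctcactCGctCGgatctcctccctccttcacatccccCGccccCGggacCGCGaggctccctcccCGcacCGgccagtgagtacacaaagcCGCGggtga
FGF6: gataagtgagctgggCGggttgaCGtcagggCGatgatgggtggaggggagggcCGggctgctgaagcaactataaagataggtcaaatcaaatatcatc
FGF21: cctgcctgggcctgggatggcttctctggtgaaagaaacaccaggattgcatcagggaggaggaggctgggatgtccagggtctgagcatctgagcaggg
These stretches hold 10 CpG for FGF13, 14 for FGFR4 and 8 for SPRY2, against 10 for FGF5, 4 for FGF6 and 0 for FGF21. FGF5 thus had as many as FGF13 although its RNA was nearly absent.

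Over the full 300-base windows, the ratio of observed to expected CpG had a median of 0.792 among the 20 tested genes with a window and 0.444 among the 16 untested ones. A ratio of at least 0.6 was found for 19 of the 20 (95%) and for 6 of the 16 (37.5%). Among the ligands with a window the numbers were 5 of 5 tested and 3 of 10 untested. Windows were missing for FGF19, which was tested, and for FGF4, FGF8, FGF9, FGF16, FGF17 and FGF20, which were not. A similar contrast was present over all protein-coding genes with a window, a set that includes the members. Of 8534 protein-coding genes whose mean reached 1 TPM, 83.4% had a ratio of at least 0.6, as did 44.9% of 6592 genes below that level, with medians of 0.843 and 0.506. Across all 15126 windows the share was 66.6%. Exceptions were SPRED3, expressed with a ratio of 0.384, and FGF3, FGF5, KL, FGF22, FRS2 and SPRY3, which had means under 1 TPM with ratios of 0.638 to 1.04. The threshold of 0.6 was chosen with the levels known, and these shares are given as a description without a test.

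**Figure D2:**
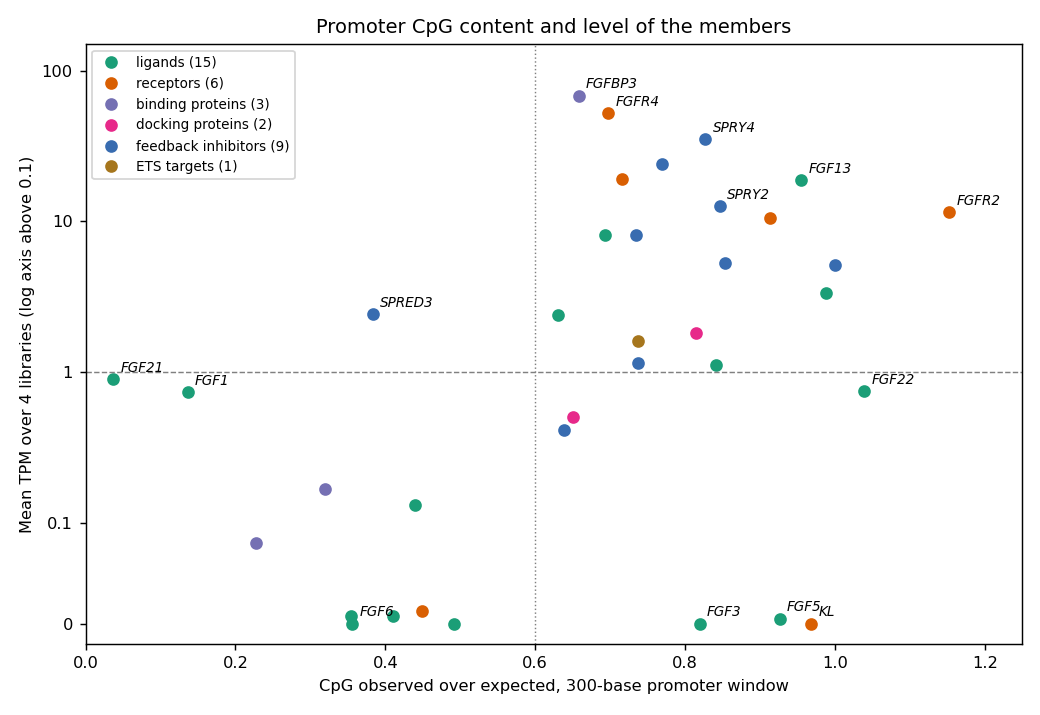
Observed over expected CpG in the 300-base promoter window (x axis) against the mean TPM over 4 libraries (y axis, log scale above 0.1 and linear below) for 36 genes, coloured by role. The dashed line marks 1 TPM and the dotted line a ratio of 0.6. Of the 20 genes above 1 TPM, 19 lie right of the dotted line, and SPRED3 is the exception.

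Among the ligands, the highest RNA levels belonged to genes whose products are not secreted. FGF11, FGF12, FGF13 and FGF14 encode FGF homologous factors, which stay inside the cell, bind sodium channels and do not act through FGF receptors in the usual way. FGF13 (ENSG00000129682) was at 19.22 and 16.25 TPM in control versus 19.86 and 19.95 TPM in KO+OE, the highest of the family. FGF11 (ENSG00000161958) followed at 7.86 and 8.99 TPM in control versus 7.41 and 8.16 TPM in KO+OE. Their ranges over the libraries did not overlap, so FGF13 stood above FGF11 beyond the spread between libraries. FGF11 shares 82.1% of its exonic bases with AC113189.4 (mean 0.165 TPM) and 28.0% with AC113189.2 (mean 0.9325 TPM), both on the same strand. It also shares 1.36% with AC113189.3 on the opposite strand (mean 2.88 TPM). The level of FGF11, and so its distance from FGF13, is uncertain for that reason. FGF12 (ENSG00000114279) was at 1.59 and 2.16 TPM in control versus 2.74 and 3.15 TPM in KO+OE, and FGF14 did not exceed 0.02 TPM. Together, the intracellular factors made up 65.8% to 70.7% of the summed FGF RNA in each library.

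Of the secreted ligands, FGF19 and FGF2 were highest. FGF19 (ENSG00000162344), an endocrine FGF that regulates bile acid synthesis in the adult, was at 4.51 and 4.75 TPM in control versus 4.87 and 4.45 TPM in KO+OE. FGF2 (ENSG00000138685), the factor supplied by the medium, lies on chromosome 4 from 122826682 to 122898236 in GRCh38.p14. Its RNA was at 3.00 and 3.42 TPM in control versus 3.41 and 3.51 TPM in KO+OE. FGF19 lay above FGF2 in every library, whereas the ranges of FGF2 and FGF12 overlapped. NUDT6 runs on the opposite strand, shares 804 bases (11.8%) of the FGF2 exons and had a mean of 2.28 TPM. Whether reads were counted by strand is not given in the sources used here, and without strand the reads of this stretch cannot be told apart. FGF18, the last ligand tested, was at 0.95 and 1.36 TPM in control versus 0.87 and 1.28 TPM in KO+OE.

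The other 16 ligand genes had means under 1 TPM and never exceeded 1.28 TPM. FGF21, an endocrine FGF of liver and fat, was at 0.57 and 1.06 TPM in control versus 1.0 and 0.99 TPM in KO+OE. FGF22 was listed between 0.62 and 0.92 TPM, FGF16 between 0.49 and 0.69 TPM and FGF1 between 0.55 and 1.21 TPM. FGF8, a patterning signal of the gastrula, varied from 0.38 to 1.28 TPM, and its lowest and highest values were both in control libraries. FGF4, which mouse embryonic stem cells make as their own differentiation signal, was between 0.04 and 0.18 TPM, and FGF5, a marker of the epiblast, was listed at 0 in 3 of the 4 libraries and at 0.02 TPM in the other. A listed value of 0 in a table without counts is not proof of absence.

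**Figure D3:**
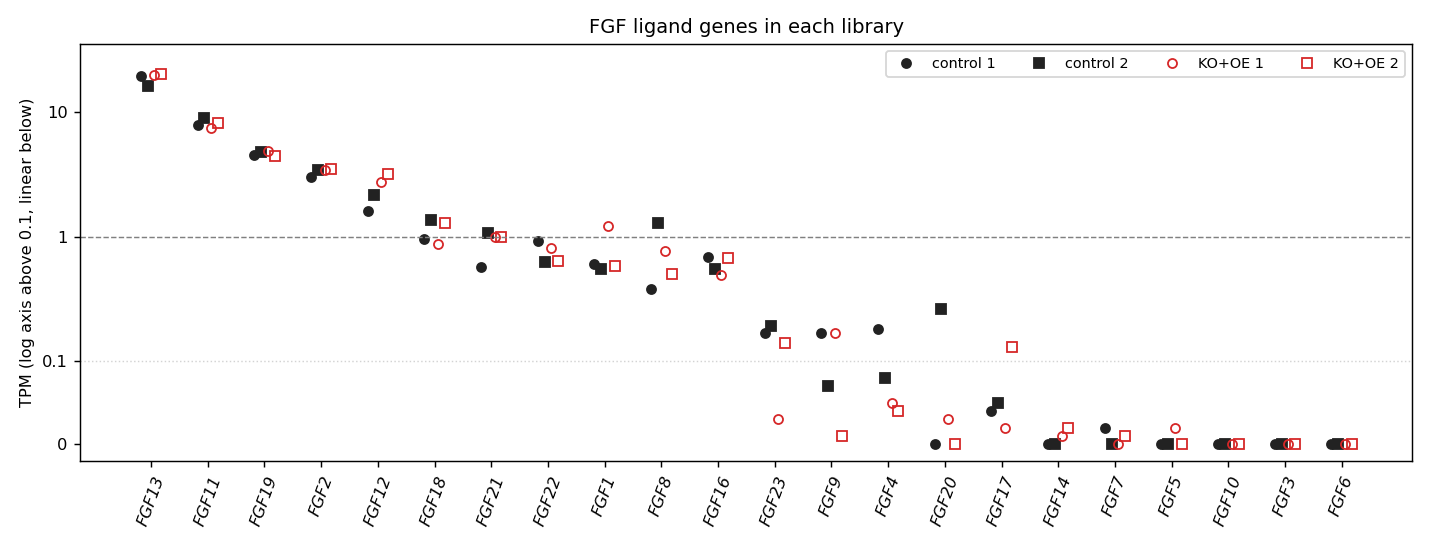
TPM of all 22 FGF ligand genes in each library, ordered by mean, on an axis that is logarithmic above 0.1 and linear below. Symbols are as for the tested genes, and the dashed line marks a level of 1 TPM. The 5 genes from FGF13 to FGF12 exceed 1 TPM in every library, and FGF3, FGF6 and FGF10 lie at 0.

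All 4 signalling receptors were expressed, with FGFR1 far ahead. FGFR1 (ENSG00000077782) was at 120.47 and 130.07 TPM in control versus 124.89 and 127.9 TPM in KO+OE, higher than 93.0% of the genes tested. FGFR4 (ENSG00000160867), the main partner of FGF19, was at 54.0 and 49.99 TPM in control versus 53.14 and 52.12 TPM in KO+OE. FGFR2 was between 10.9 and 12.15 TPM and FGFR3 between 9.81 and 11.32 TPM, so the order of these last receptors was within their spread. FGFRL1, a receptor without a kinase domain, was at 18.38 and 18.34 TPM in control versus 20.99 and 18.6 TPM in KO+OE. Its range lay below that of FGFR4 and above that of FGFR2. The endocrine co-receptors were at the floor, with KLB at no more than 0.03 TPM and KL listed at 0. FGF19 and FGF21 RNA was therefore listed in cells with almost no RNA for the klotho proteins through which these hormones bind their receptors.

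The receptors outweighed the ligands. FGFR1 to FGFR4 summed to 196.56 and 202.28 TPM in control versus 201.14 and 201.16 TPM in KO+OE. FGFR1 contributed 61.3% to 64.3% of this sum, FGFR4 24.7% to 27.5%, FGFR2 5.39% to 6.08% and FGFR3 4.88% to 5.60%. The secreted ligands summed to between 12.2 and 14.24 TPM, so there was 14.2 to 16.1 times as much RNA for receptors as for secreted FGFs. FGFR1 alone exceeded FGF2 by 36.4 to 40.2 times. These are ratios of RNA and not of protein, and the FGF2 of the medium is not in them. They also rest on the transcript lengths behind the values, which are not known.

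FGF-binding proteins carry FGFs from the matrix to their receptors, and only FGFBP3 was well expressed. It was at 70.99 and 68.52 TPM in control versus 67.33 and 65.78 TPM in KO+OE. FGFBP2 lay between 0.05 and 0.27 TPM and FGFBP1 between 0.04 and 0.13 TPM. FGFBP2 shares 14.0% of its exonic bases with PROM1 on the same strand, which had a mean of 5.41 TPM. The docking proteins were low. FRS3 was at 1.82 and 1.87 TPM in control versus 1.61 and 1.93 TPM in KO+OE. FRS2 was at 0.26 and 0.41 TPM in control versus 0.52 and 0.84 TPM in KO+OE, below the level required for the test. Its canonical transcript is 6768 nt long with a GC content of 36.9%.

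The ETS factors were dominated by ETV4. ETV4 (ENSG00000175832) was at 188.49 and 184.15 TPM in control versus 182.02 and 189.87 TPM in KO+OE, the highest of all 48 genes and above 95.2% of the genes tested. ETV5 was at 26.81 and 29.07 TPM in control versus 27.78 and 25.08 TPM in KO+OE. ETV1 was at 2.11 and 1.07 TPM in control versus 1.56 and 1.68 TPM in KO+OE, with both extremes in the control group. ETV4 RNA was thus 6.33 to 7.57 times as abundant as ETV5 RNA within each library. ETV4 shares 68 exonic bases, or 1.93%, with DHX8 on the opposite strand.

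The feedback inhibitors act at several steps of the pathway, and 10 of 11 were tested. The Sprouty proteins restrain RAS activation. SPRY4 was the highest of them, at 35.16 and 36.51 TPM in control versus 35.49 and 33.6 TPM in KO+OE. SPRY2 was between 12.07 and 13.26 TPM, and SPRY1 was at 8.68 and 6.0 TPM in control versus 10.46 and 7.57 TPM in KO+OE. Replicate 1 was the higher library of SPRY1 in both groups, and the groups overlapped. SPRY3 was low, between 0.24 and 0.61 TPM. The DUSP genes of the list encode phosphatases that remove the activating phosphates from ERK and its relatives. DUSP6, the cytoplasmic ERK phosphatase, was at 23.04 and 24.57 TPM in control versus 25.06 and 23.0 TPM in KO+OE. It shares 28.6% of its exonic bases with AC024909.1 on the opposite strand, which had a mean of 0.205 TPM. DUSP5, a nuclear ERK phosphatase, lay between 11.31 and 12.1 TPM and DUSP4 between 6.35 and 7.12 TPM. DUSP7 was at 4.71 and 4.72 TPM in control versus 5.71 and 5.39 TPM in KO+OE. The SPRED proteins bring the RAS inhibitor neurofibromin to the membrane. SPRED2 was at 4.86 and 5.1 TPM in control versus 5.79 and 5.47 TPM in KO+OE, SPRED1 at 0.95 and 0.9 against 1.32 and 1.43 TPM, and SPRED3 at 3.63 and 2.42 against 1.71 and 1.95 TPM.

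Ordered by mean, the 26 tested genes form 25 neighbouring pairs. For 11 pairs the ranges over the 4 libraries did not overlap, and for 14 they did, so the order of those neighbours is not settled by these data. Transcript composition is given beside these levels. Over the 26 genes, Spearman's rho of TPM with the GC content of the canonical transcript was 0.213 to 0.279 in the 4 libraries, and with its length -0.129 to -0.080. The libraries share these genes and these transcripts, so the rho values are 1 description and not 4. They cover only the tested members. Median GC content was 52.6% for these and 45.6% for the 21 untested members with a canonical transcript. It was 51.8% over the 12147 tested genes with such a transcript. The part of GC content in these levels was not tested.

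KO+OE was then compared with control. The values were tested on the scale log2(TPM + 1) with limma over 12319 genes, which understates the fold change of genes with low values. No member of the pathway passed an adjusted p of 0.05, and the lowest adjusted p was 0.928. Of all genes tested, 1 passed (0.00812%), AC125388.1, which does not belong to the pathway. At an unadjusted p under 0.05, 1 of 26 members passed, FGF12, against 656 genes or 5.33% of all genes tested. In that background 279 genes were higher in KO+OE (2.26%) and 377 were lower (3.06%). The log2 fold changes of the members had a median of 0.01, with 14 above and 12 below 0, and the median over all genes tested was -0.01. For 25 of the 26 members the 95% confidence interval lay wholly within 2-fold of TPM + 1 in either direction. The same held for 11409 of all 12319 genes. For genes near 1 TPM, such as FGF18 and ETV1, this is a looser bound on TPM itself. A difference smaller than these intervals was not detectable with 2 libraries per group.

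**Figure D4:**
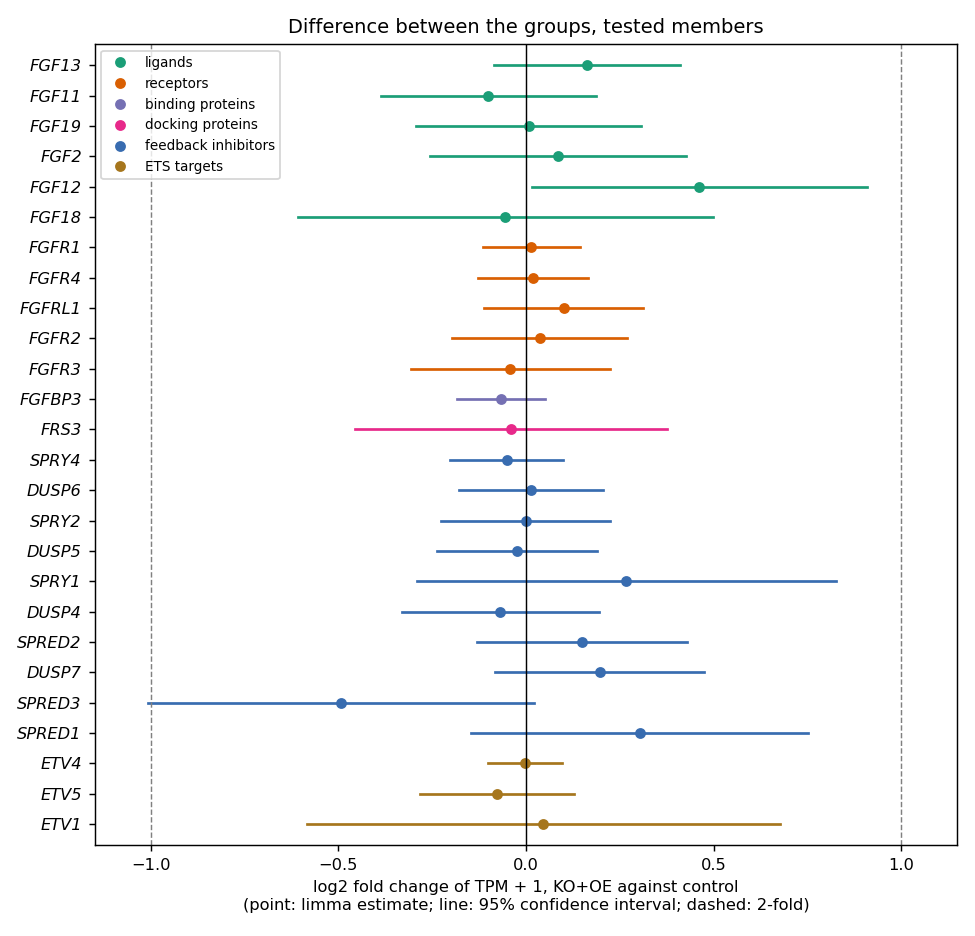
Log2 fold change of TPM + 1, KO+OE against control, for the 26 tested genes, coloured by role. Points are limma estimates, lines their 95% confidence intervals, and dashed lines mark 2-fold of TPM + 1. The interval of FGF12 lies just above 0, that of SPRED3 reaches below -1, and all others cross 0 between the dashed lines.

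FGF12 was higher in both KO+OE libraries than in either control library. The log2 fold change of 0.46 ± 0.17 (SE, n = 2 per group) had a 95% confidence interval from 0.02 to 0.91. Limma gave an unadjusted p = 0.0449 and an adjusted p = 0.928. The fold change was 0.32 to 0.61 when single libraries were left out. Its unadjusted p stayed under 0.05 without control replicate 2 but not without control replicate 1 or either KO+OE library. SPRED3 differed most in the other direction, with a log2 fold change of -0.49, a confidence interval of -1.01 to 0.02 and an adjusted p = 0.931. Both KO+OE libraries lay below the control libraries. Omitting control replicate 2 gave -0.71, and omitting control replicate 1 gave -0.27.

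No receptor had a called difference. FGFR1 had a log2 fold change of 0.01 with a confidence interval of -0.12 to 0.14. FGFR4 gave 0.02 with an interval of -0.13 to 0.16, and FGFR2 and FGFR3 gave 0.04 and -0.04 with intervals of -0.20 to 0.27 and -0.31 to 0.22. FGFRL1 gave 0.10 with an interval of -0.11 to 0.31, and it gave 0.018 when KO+OE replicate 1 was left out, or 0.184 when KO+OE replicate 2 was. The sum of FGFR1 to FGFR4 was 199 ± 4.04 TPM (SD, n = 2) in control, against 201 ± 0.0141 TPM (SD, n = 2) in KO+OE, and an exact permutation test (two-sided) gave p = 1. The difference of 1.73 TPM became -1.13 TPM without control replicate 1 and 4.59 TPM without control replicate 2. The FGF ligand sum was 41.3 ± 0.544 TPM (SD, n = 2) in control and 43.995 ± 0.332 TPM (SD, n = 2) in KO+OE, higher in both KO+OE libraries by a mean of 2.74 TPM. An exact permutation test (two-sided) gave p = 0.333, which is the smallest p that 2 against 2 libraries allow. Most of that difference lay in the intracellular factors, whose sum was 28.67 and 27.4 TPM in control versus 30.02 and 31.28 TPM in KO+OE. The secreted ligands summed to 12.2 and 14.24 TPM in control versus 13.74 and 12.95 TPM in KO+OE, and these overlapped. FGF2 itself had a log2 fold change of 0.08 with a confidence interval of -0.26 to 0.43 and an adjusted p = 0.980 from limma. Omitting control replicate 1 lowered that value to 0.013, and omitting control replicate 2 raised it to 0.157.

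The targets that report FGF activity showed no called difference. ETV4 gave a log2 fold change of -0.003 with an interval of -0.10 to 0.10, and its sign turned with the scaling of the libraries. ETV5 gave -0.08 with an interval of -0.28 to 0.13, SPRY4 -0.05 with -0.20 to 0.10, and DUSP6 0.01 with -0.18 to 0.20. ETV5 was at -0.149 with KO+OE replicate 1 omitted, and at -0.0069 with KO+OE replicate 2 omitted. SPRY4 moved between -0.090 and -0.013 on leaving out the same libraries. The sum of the 3 ETV genes was 217.41 and 214.29 TPM in control versus 211.36 and 216.63 TPM in KO+OE. The sum over the 11 feedback inhibitors was 111.86 and 112.75 TPM in control versus 117.28 and 108.61 TPM in KO+OE, with both extremes in the KO+OE group. SPRY1 had a log2 fold change of 0.27 and a wide interval of -0.29 to 0.83. It was 0.034 without control replicate 2, 0.502 without control replicate 1, and 0.058 or 0.477 when KO+OE replicate 1 or 2 was left out.

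For 8 of the 26 tested members the groups did not overlap in TPM, against 34.1% of all genes tested. DUSP7, FGF12, FGF13, FGFRL1, SPRED1 and SPRED2 were higher in both KO+OE libraries, 6 members against a background of 14.5%. FGFBP3 and SPRED3 were lower in both, 2 members against 19.6%. The log2 fold change was 0.20 for DUSP7 (limma, adjusted p = 0.937), 0.30 for SPRED1 and 0.16 for FGF13 (adjusted p = 0.938 each), and -0.07 for FGFBP3 (adjusted p = 0.942). The value of FGF13 depended on the control libraries, at 0.277 without replicate 1 and 0.048 without replicate 2. FGFBP3 was -0.041 without control replicate 1. Fold changes of members with AT-rich transcripts lay higher. Over the 26 members Spearman's rho of the log2 fold change with transcript GC content was -0.419, against -0.0719 over 12147 genes. The median log2 fold change of the 5 members under 40% GC was 0.16, against 0.0015 over 1178 genes tested in that range. These 5 were FGF12 with 33.8% GC, SPRED1 with 36.3%, FGF2 with 36.8%, ETV1 with 37.1% and FGF13 with 38.9%. FGF2 and ETV1 had the smaller log2 fold changes among them, 0.08 and 0.05. The part of GC content in these differences was not tested.

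Other genes of the pathway were described with lists of the RAS-ERK cascade, of heparan sulfate and its carriers, and of early response genes. None of their members passed an adjusted p of 0.05. Of 24 RAS-ERK genes, 20 were tested and 3 had an unadjusted p under 0.05, 1 higher and 2 lower in KO+OE, where 5.33% of all genes tested passed (2.26% higher and 3.06% lower). The median log2 fold change over the list was -0.02. BRAF, a kinase that activates MEK, was at 2.43 and 2.37 TPM in control versus 3.84 and 3.52 TPM in KO+OE, with a log2 fold change of 0.46, an unadjusted p = 0.0182 and an adjusted p = 0.928 from limma. GAB1, an adaptor that binds the phosphatase SHP2, was at 1.38 and 1.5 TPM in control versus 0.83 and 0.54 TPM in KO+OE, with a log2 fold change of -0.54 and the same adjusted p. RPS6KA1, a kinase downstream of ERK, was at 50.46 and 52.63 TPM in control versus 47.47 and 45.86 TPM in KO+OE, with a log2 fold change of -0.14. On leaving out 1 library the log2 fold change ran from 0.41 to 0.51 for BRAF, -0.66 to -0.41 for GAB1 and -0.17 to -0.11 for RPS6KA1. None of these unadjusted calls held under every omission.

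The most abundant RAS-ERK genes were MAP2K2, the gene for MEK2, at 253.87 to 260.52 TPM, SHC1, an adaptor, at 175.2 to 179.6 TPM, and PLCG1, for phospholipase C gamma, at 71.5 to 77.42 TPM. MAP2K2 had a log2 fold change of -0.006 with a confidence interval of -0.09 to 0.08, and SHC1 of -0.02 with -0.11 to 0.06. In PLCG1 each control library stood at 77.42 TPM, and the KO+OE libraries stood at 71.5 and 73.28 TPM, with an unadjusted p = 0.0700. Of 21 heparan sulfate genes, 17 were tested and 0 had an unadjusted p under 0.05 in limma, against the same 5.33% of all genes, with a median log2 fold change of -0.02. The glypican genes GPC4 (60.11 to 64.11 TPM) and GPC1 (35.49 to 38.84 TPM) and the glycosyltransferase gene EXTL3 (38.55 to 50.7 TPM) were highest. Both extremes of EXTL3 were in KO+OE. Of 15 early response genes, 13 were tested and again 0 had an unadjusted p under 0.05 in limma, against 5.33% of all genes, with a median of -0.007. IER2 ranged from 102.28 to 107.47 TPM, IER3 from 69.6 to 73.53 TPM, and SRF, a transcription factor that drives such genes, from 37.02 to 37.87 TPM.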

How the data were processed

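The authors deposited 1 table that lists 60671 Ensembl genes, gives each library a column and names no unit. The deposited values were read as TPM because the columns hold decimals and sum to nearly the same total, as TPM do. That total falls slightly short of a full TPM column, for a reason not known. The study states its cut-off for expressed genes in FPKM, a related unit, so the reading as TPM is an inference. The submitters' processing notes name HISAT2, featureCounts, Subread, DESeq2 and the build hg38, and versions and annotation are not given in the sources used here. All per-sample columns were used (0 were left out), and count-based tests were not used because the table holds no counts.

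Groups and replicate numbers came from the sample titles. Genes whose mean over the 4 libraries reached 1 TPM were tested on log2(TPM + 1) with limma 3.58.1 in R 4.3.3 (eBayes with a mean-dependent prior, group as the only term, two-sided), with Benjamini-Hochberg adjustment over all 12319 genes. The step was also run on simulated data, but its recovery rate is not given here. Sums were compared by exact permutation. Tables were handled in Python 3.11.15 with pandas 2.3.3, scipy 1.17.1 and matplotlib 3.10.9.

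Members and lists were chosen with earlier results of these data known. Every member whose mean reached 1 TPM was named, those below it where a library listed 0.3 TPM or more, and of each other list the 3 highest genes and those at an unadjusted p under 0.05. FGF4, FGF5, FGF14, FGFBP1, FGFBP2, KLB and the members listed at 0 were added to the names with their values known. FGF9, FGF17 and FGF20 were named only as lacking a promoter window. Positions and promoter windows came from RefSeq, GRCh38.p14, by symbol. Transcript length, GC content and exon overlaps came from GENCODE release 44 by Ensembl identifier.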

Additional observations from a re-analysis of the deposited data

How the results depend on the processing

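The table gives no counts, so counting error could not be computed, and with 2 libraries per group genes of low TPM were measured least precisely. Alternatives were a pseudocount of 0.1 or 5, a filter of 5 TPM or none, median-ratio rescaling, quantile normalization, no mean-dependent prior, the replicate block, and omission of single libraries, where the lone library is assumed to vary like the other group. No member passed an adjusted p of 0.05 under any of these 12 alternatives. At an unadjusted p under 0.05 the number of members was 0 without a filter, 0 with the 5 TPM filter (which drops FGF12), and 3 without the mean-dependent prior (FGF12, DUSP7 and SPRED1). It was 0 to 2 on leaving out 1 library: FGF13 alone passed without control replicate 1, FGF12 and SPRED3 passed without control replicate 2, and 0 passed without KO+OE replicate 1 or 2. Over all genes tested, an unadjusted p under 0.05 was reached by 4.88% without a filter, 5.57% with the 5 TPM filter and 5.58% without the prior, and by 4.93%, 5.15%, 4.50% and 4.51% without control replicate 1, control replicate 2, KO+OE replicate 1 and KO+OE replicate 2. The RAS-ERK count of 3 became 1 with the 5 TPM filter. On leaving out 1 library it fell, and without control replicate 2 HRAS passed, which was not among those 3. Heparan sulfate genes gave 0 to 1, with EXTL3 passing without KO+OE replicate 1. Early response genes gave 1 without the mean-dependent prior (DUSP1) and 0 to 1 on leaving out 1 library, with FOS passing without KO+OE replicate 1. The median log2 fold change of the members was -0.0019 without a filter, -0.020 without control replicate 1 and 0.032 without control replicate 2. The difference in the FGF ligand sum was 3.26 TPM after quantile normalization and 2.36 to 3.13 TPM on leaving out 1 library. The cause of these shifts was not tested except where a gene is dropped by the filter. The adjusted p of FGF12 ranged from 0.852 to 0.953 over the alternatives.

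Same-numbered libraries did not deviate together (correlation -0.0485), so the replicate numbers were not taken as pairs. With the replicate block no member (0 of 26) had an adjusted p under 0.05 and 1 had an unadjusted p under 0.05, and 1 RAS-ERK gene (BRAF) had an unadjusted p under 0.05. Of all genes tested, 0 passed the adjusted threshold and 673 (5.46%) the unadjusted one.

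Signs near 0 were not stable. SPRY2 became 0.012 and 0.011 under median-ratio rescaling and quantile normalization, and ETV4 0.010 and 0.0090. MAP2K2 became 0.0074 and SRF 0.00088 under median-ratio rescaling, and IER3 0.014 under quantile normalization. On leaving out 1 library the log2 fold change ran from -0.012 to 0.066 for NUDT21, and 12 of the 26 members turned sign: ETV1 (-0.248 to 0.340), FGFR2 (-0.025 to 0.098), FGFR3 (-0.116 to 0.031), FGFR1 (-0.041 to 0.069), SPRY2 (-0.064 to 0.062), FRS3 (-0.124 to 0.043), DUSP5 (-0.069 to 0.021), DUSP6 (-0.047 to 0.072), FGF18 (-0.198 to 0.088), FGFR4 (-0.036 to 0.073), FGF19 (-0.047 to 0.061) and ETV4 (-0.033 to 0.027). So did MAP2K2 (-0.024 to 0.013), EXTL3 (-0.267 to 0.120), GPC1 (-0.019 to 0.098), IER3 (-0.053 to 0.025) and SRF (-0.028 to 0.0039).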
